A study of Mus musculus with 3 samples.

Results

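The data describe the 39 Hox genes of the mouse (symbols Hoxa, Hoxb, Hoxc or Hoxd followed by a number) among the 32285 genes counted in single stromal cells of subcutaneous inguinal fat, the pad at the groin. All genes with such a symbol were taken, whatever their level: 11 in the HoxA cluster on chromosome 6, 10 in HoxB on chromosome 11, 9 in HoxC on chromosome 15 and 9 in HoxD on chromosome 2. The cells came from 3 male wild-type C57BL/6J mice aged 8 weeks, with 1 droplet library of single cells per mouse and 1 condition, so no groups of mice could be compared. They had been sorted from collagenase-digested fat for lack of CD31, an endothelial surface protein, and of CD45, a leukocyte surface protein. Only 1 depot was measured, so the values describe the Hox genes active in inguinal stroma and cannot show what is particular to this body position.

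Hox genes encode homeodomain transcription factors that give cells along the body axis their positional identity. Their order along each chromosome matches the order of their domains from head to tail, low numbers acting towards the head and high numbers towards the tail. Genes with the same number in different clusters are paralogs, copies of 1 ancestral gene, and together form a paralog group. Fibroblasts and adipocyte progenitors keep a Hox pattern typical of their site of origin into adult life. HOX proteins bind DNA together with TALE homeodomain cofactors such as PBX and MEIS, while Polycomb complexes keep silent Hox genes off and trithorax proteins keep active ones on.

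A cell was kept when over 500 genes were detected in it and under 5% of its counts were mitochondrial, which left 12984, 6414 and 15179 cells in mice 1, 2 and 3. They were assigned by raw counts of unique molecular identifiers (UMIs), each of which stands for 1 captured RNA molecule. The progenitor gate took cells with at least 3 UMIs of Dpp4 and Pi16 together and at most 1 of Icam1 and Fabp4 together. The preadipocyte gate took cells with at least 4 UMIs of Icam1 and Fabp4 together and at most 1 of Dpp4, and the regulatory gate took cells with at least 1 UMI each of Clec11a and Fmo2 and at most 1 each of Fabp4 and Dpp4. These 6 genes are not Hox genes, so no Hox value chose a cell. The gates held 7399, 3169 and 9273 progenitor, 2278, 1394 and 1889 preadipocyte, and 270, 384 and 404 regulatory cells in mice 1, 2 and 3. Cells that passed more than 1 gate were left out of all gates, and 7853 of the 34577 kept cells passed no gate.

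The kept cells carried between 78108414 and 99328725 UMIs per mouse, and the median cell had between 6667 and 12192.5 UMIs, mouse 2 being the deepest per cell. Any pair of libraries shared between 52 and 81 cell barcodes, and their gene totals differed by more than counting noise. Markers that had no part in the gates followed them. Cd55, Wnt2, Anxa3 and Sema3c were lower in the preadipocyte than in the progenitor gate by 3.11 to 4.21 on the log2 scale. Pparg, Lpl, Plin2 and Cd36 were higher there by 2.80 to 5.89, and F3, Mgp and Gdf10 were higher in the regulatory gate than in both others. Cygb was higher in the regulatory than in the progenitor gate but did not pass the test against the preadipocyte gate. Summed levels of leukocyte markers were at most 1.08 CPM (UMIs of a gene as a share of all UMIs summed, on a scale of 1000000) over all kept cells of a mouse, and those of endothelial markers at most 14.6 CPM.

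The sequences shown first are those of paralog group 8. Its members Hoxd8 and Hoxb8 had log2 fold changes of opposite sign between the preadipocyte and progenitor gates. Hoxb8 was tested only because of its preadipocyte sums, as described further down. The homeobox is the stretch of 60 codons that encodes the DNA-binding homeodomain, and it was found as 1 unbroken stretch in the transcripts of all 39 genes. In this group the homeoboxes lie on GRCm38 at chr11:96284174-96284353 (Hoxb8), chr15:102992571-102992750 (Hoxc8) and chr2:74706525-74706704 (Hoxd8), all on the plus strand, and capitals mark the 56 of 180 bases at which these 3 genes are not all the same.

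Hoxb8: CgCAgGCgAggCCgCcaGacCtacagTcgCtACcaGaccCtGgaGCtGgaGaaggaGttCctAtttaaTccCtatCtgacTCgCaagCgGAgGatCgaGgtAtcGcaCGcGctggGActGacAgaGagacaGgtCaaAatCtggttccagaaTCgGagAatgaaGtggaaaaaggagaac
Hoxc8: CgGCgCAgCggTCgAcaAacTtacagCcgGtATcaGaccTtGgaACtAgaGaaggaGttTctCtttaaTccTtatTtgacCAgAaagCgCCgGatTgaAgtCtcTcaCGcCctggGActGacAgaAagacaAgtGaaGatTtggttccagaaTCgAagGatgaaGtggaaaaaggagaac
Hoxd8: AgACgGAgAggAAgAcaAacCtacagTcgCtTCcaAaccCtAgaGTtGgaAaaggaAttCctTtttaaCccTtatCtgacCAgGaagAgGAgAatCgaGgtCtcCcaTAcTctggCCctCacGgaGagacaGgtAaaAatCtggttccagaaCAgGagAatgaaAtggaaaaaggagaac

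Hoxb8 and Hoxc8 shared 80.0% of the bases and differed in 1 residue, Hoxc8 and Hoxd8 shared 73.3% and differed in 4, and Hoxb8 and Hoxd8 differed in 3. The deposited counts come from captured RNA ends and not from the homeobox, and the last 300 exonic bases of no Hox gene overlapped those of another counted gene on the same strand.

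Over all kept cells the HoxC genes stood highest. In CPM of captured molecules, a scale that for RNA ends does not depend on gene length, Hoxc8 was at 50.4, 46.4 and 41.4 in mice 1, 2 and 3. Hoxc10 was at 45.6, 53.5 and 37.5 CPM, Hoxc9 at 26.9, 33.2 and 24.5 CPM, and Hoxc6 at 23.4, 23.5 and 19.0 CPM. The ranges of Hoxc8 (46.1 ± 4.48, SD, n = 3 mice) and Hoxc10 (45.5 ± 7.97) overlapped, and Hoxc8 was the higher in 2 of 3 mice. Hoxc10 was higher than Hoxc9 (28.2 ± 4.50), Hoxc9 than Hoxc6 (22.0 ± 2.56), and Hoxc6 than the fifth gene Hoxa7 (11.3 ± 3.49 CPM) in all 3 mice with no overlap of ranges. These 4 genes of paralog groups 6 to 10 were the only ones to reach 20 CPM.

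A further 15 Hox genes lay between 1 and 20 CPM. After Hoxa7 they were, in order of mean level, Hoxc4 (11.1 CPM), Hoxb2 (10.9), Hoxa10 (9.03), Hoxd8 (6.97), Hoxb4 (6.18), Hoxa9 (5.32), Hoxc5 (5.32), Hoxb7 (4.51), Hoxa5 (4.19), Hoxb3 (3.66), Hoxa3 (2.69), Hoxb6 (2.60), Hoxc11 (1.90) and Hoxd9 (1.30). From Hoxa7 down, each gene's range over the mice overlapped that of the next. Another 16 genes were below 1 CPM, and Hoxb13, Hoxc12, Hoxd12 and Hoxd13 had 0 UMIs. A count of 0 among 272253659 UMIs allows a level of up to 0.0110 CPM, taking 3 counts as the limit, and covers counting error only. Mouse 3 had the lowest level for 17 of the 19 genes at or above 1 CPM, and mouse 2 the highest for 14 of them. The HoxD sum went against this, being lowest in mouse 1.

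Levels fell steeply at the tail side of HoxA, HoxC and HoxD. In HoxA, Hoxa10 had 2423 UMIs and its neighbour Hoxa11, whose start lies 4.96 kb away, had 16, a ratio of 151. Hoxa13 beyond it had 1 UMI. In HoxC, Hoxc10 had 12230 UMIs, Hoxc11 at a distance of 12.4 kb had 529, and Hoxc12 and Hoxc13 had 0 and 2. In HoxD, Hoxd9 had 352 UMIs and Hoxd10, 5.80 kb away, had 2. HoxB fell in smaller steps and from an earlier gene on, with 1206 UMIs of Hoxb7, 162 of Hoxb8, 81 of Hoxb9 and 0 of Hoxb13. Of paralog groups 11 to 13, the ones that act in the limb ends, genitals and tail, Hoxc11 carried nearly all molecules, and the 3 groups together made up 0.881% of all Hox UMIs. At the head side, Hoxb1 had 3 UMIs beside 2905 of Hoxb2, and Hoxd1 and Hoxd3 had 1 and 9 UMIs.

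**Figure D1:**
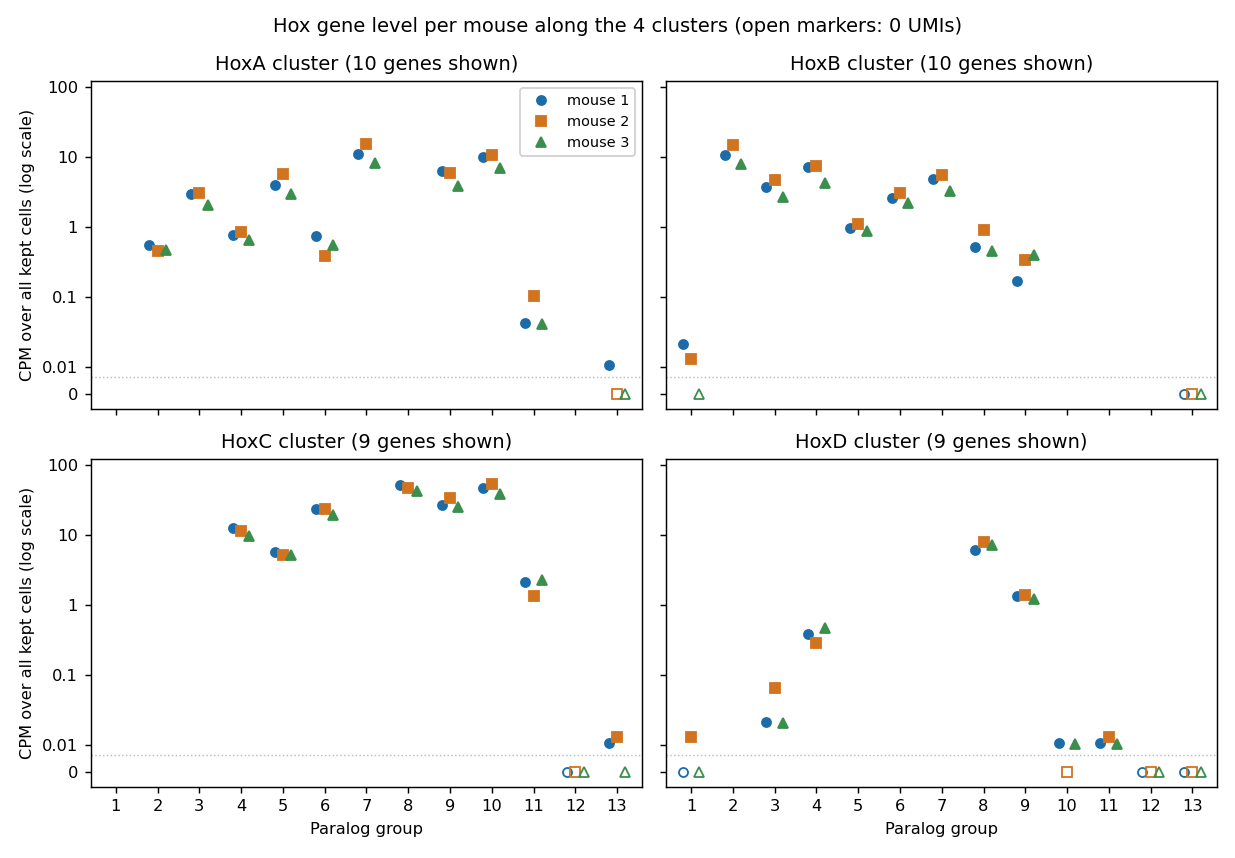
Level of the Hox genes over all kept cells, all but 1 of them shown (CPM, log axis), against the paralog group, 1 panel per cluster and 1 marker per mouse, with open markers for 0 UMIs. Hoxc6, Hoxc8, Hoxc9 and Hoxc10 lie between 19.0 and 53.5 CPM in every mouse, and Hoxa11, Hoxc11 and Hoxd10 lie far below their neighbours Hoxa10, Hoxc10 and Hoxd9.

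Summed over genes, HoxC held 68.8% ± 2.59 of all Hox UMIs (SD, n = 3 mice), HoxA 14.8% ± 1.54, HoxB 12.6% ± 1.52 and HoxD 3.78% ± 0.684. All Hox genes together came to 233 ± 34.6 CPM. By gate the total was 223 ± 34.9 CPM in the progenitor gate, 245 ± 24.1 in the preadipocyte gate and 285 ± 43.4 in the regulatory gate. The ranges of the gates overlapped, but within each mouse the order was the same: the preadipocyte sum was above the progenitor sum by 0.10, 0.08 and 0.25 on the log2 scale in mice 1, 2 and 3, and the regulatory sum by 0.44, 0.26 and 0.35. Sums over chosen genes are given as descriptions, without a test.

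The HoxD cluster was the one whose sum parted from the others. It lay between 10.9 and 12.1 CPM in the progenitor gate, between 1.63 and 3.56 CPM in the preadipocyte gate and between 14.1 and 19.0 CPM in the regulatory gate, with no overlap. Relative to the progenitor gate, the preadipocyte gate was lower for HoxD by 2.74, 1.77 and 2.50 on the log2 scale in mice 1, 2 and 3. The same ratio for HoxC was 0.20, 0.14 and 0.29, and for HoxA 0.14, 0.23 and 0.47. For HoxB it was -0.08, -0.01 and 0.32, so the sign was not the same in all mice. HoxD thus held 5.12% of all Hox UMIs in the progenitor gate, 0.953% in the preadipocyte gate and 5.81% in the regulatory gate. Of the 1843 HoxD UMIs in the progenitor and preadipocyte gates, Hoxd8 gave 1384 and 94, so the sum largely restates that gene.

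By paralog group, group 10 was at 47.0 ± 8.17 CPM in the progenitor gate, 66.9 ± 7.63 in the preadipocyte gate and 71.2 ± 12.9 in the regulatory gate. It was higher in the preadipocyte than in the progenitor gate by 0.45, 0.46 and 0.64 on the log2 scale in the 3 mice. Group 4, which includes Hoxa4, Hoxb4, Hoxc4 and Hoxd4, was at 31.8 ± 0.626 CPM in the regulatory gate, against 17.0 ± 3.75 in the progenitor and 18.5 ± 2.14 in the preadipocyte gate, and the regulatory range of 31.1 to 32.3 CPM did not overlap the others. Group 11 was lower in the preadipocyte than in the progenitor gate by 1.41, 2.03 and 1.62 on the log2 scale. Of the 10442 group 10 UMIs in these gates, Hoxc10 gave 5703 progenitor and 2914 preadipocyte UMIs. Hoxc11 gave 399 and 41 of the 456 in group 11, so these sums largely restate single genes. Groups 8 and 9 differed little in sum between these gates, with log2 ratios of 0.01, -0.01 and 0.03 for group 8 and 0.14, -0.01 and 0.21 for group 9. Within both groups the HoxD member moved against this sum, as the single genes show.

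**Figure D2:**
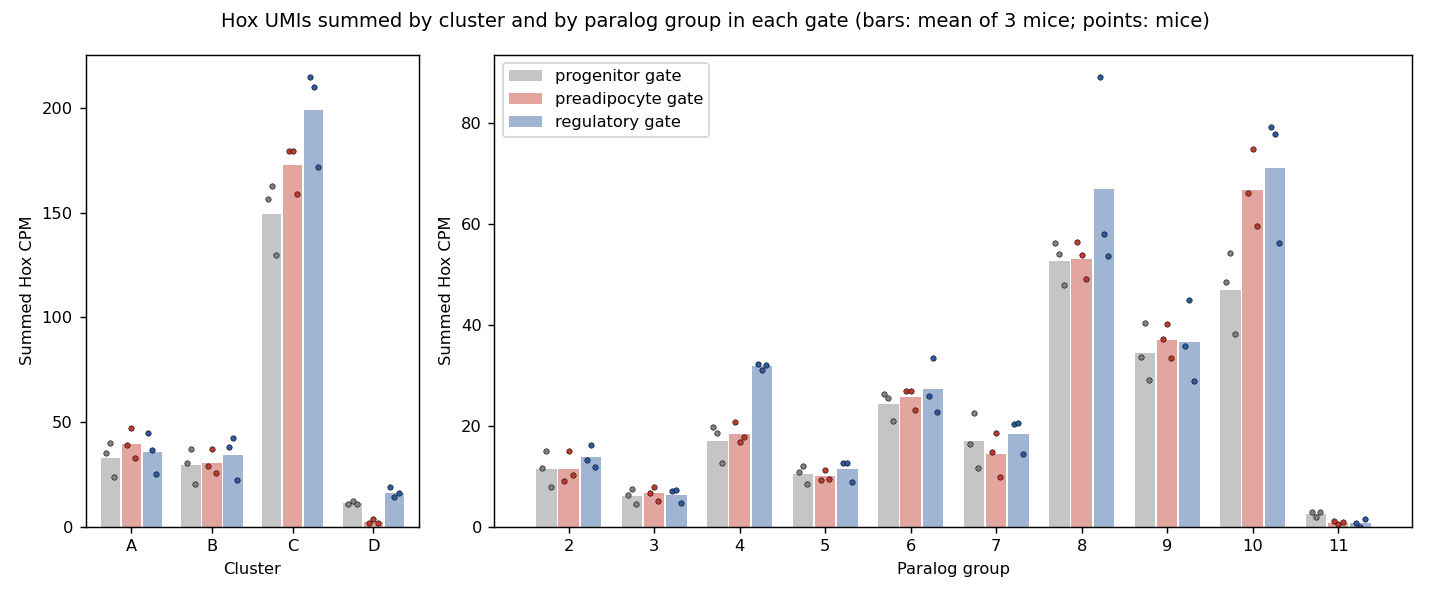
Hox UMIs summed by cluster and by paralog group, from group 2 to 11 (CPM, linear axis from 0), in the progenitor, preadipocyte and regulatory gates, with bars for the mean of 3 mice and points for the mice. HoxD drops to between 1.63 and 3.56 CPM in the preadipocyte gate, and group 4 stands at 31.1 to 32.3 CPM in the regulatory gate.

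The first comparison asked which Hox genes differ between preadipocytes and the progenitors thought to give rise to them. HoxD genes and Hoxc11 were lower in the preadipocyte gate, while Hoxc10 and several HoxA genes were higher. UMIs were summed per mouse and gate and tested with edgeR's quasi-likelihood test with the mouse as a block, and p-values were adjusted by Benjamini-Hochberg over all 13258 genes tested. Of the 39 Hox genes, 26 passed the filter on low counts. It asks for at least 3 of the 9 sums at or above 0.547 CPM. Hoxd4 reached this in the 3 regulatory sums and in no other, so a higher level there was a condition of its being tested, and its calls are given as descriptions. Hoxa4 reached it in no progenitor sum and Hoxd9 in no preadipocyte sum, but each in all sums of both other gates. Hoxa6 reached it in 0 progenitor, 3 preadipocyte and 1 regulatory sums, and Hoxb8 in 1, 3 and 0. Both were thus tested only because of their preadipocyte sums, and their calls there are also given as descriptions. The 13 that did not pass were the 4 with no UMI, 7 with at most 10 UMIs, Hoxa11 with 16 and Hoxb9 with 81. Of the 26, 5 were higher, Hoxa6 and Hoxb8 among them, and 5 lower at an adjusted p under 0.05. Beside this, 27.2% of all genes were higher and 29.2% lower, so the share of Hox genes called was below that of all genes. The median log2 fold change was 0.02 over the Hox genes and 0.00 over all genes. Scaled by library size alone or by the upper quartile, 9 Hox genes were higher and 4 lower. The balance over all genes moved the same way, from 3601 higher and 3870 lower. It became 4109 and 3460 by library size and 4473 and 3232 by the upper quartile. No called Hox gene changed sign under any alternative.

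Hoxd8 (ENSMUSG00000027102, chr2:74704615-74707933) was at 8.42, 9.85 and 8.96 CPM in the progenitor gate of mice 1, 2 and 3 and at 0.978, 3.01 and 1.55 CPM in the preadipocyte gate. All 3 preadipocyte values lay below all 3 progenitor values, and mouse 2 had the smallest gap. The log2 fold change was -2.37 (SE 0.23, adjusted p = 2.63e-06 by edgeR), a level 5.16-fold lower. Hoxd9 (ENSMUSG00000043342, chr2:74697727-74700208) was at 1.93, 2.03 and 1.57 CPM in the progenitor gate and 0.272, 0.273 and 0.147 CPM in the preadipocyte gate. Its groups did not overlap either, and the preadipocyte values rest on 12 UMIs in all, against 279 in the progenitor gate. The log2 fold change was -3.00 (SE 0.35, adjusted p = 1.23e-05), or 8.00-fold lower. Hoxd4, which lies further towards the head end of the cluster, was at 0.320 and 0.201 CPM and did not pass the test (log2 fold change -0.69, 95% interval -1.98 to 0.60). It passed when cells with markers of leukocytes or endothelium were left out, with a log2 fold change of -2.33 and an adjusted p of 0.0491.

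Endothelial markers moved between these gates as well. Their summed level was 2.50 to 8.39 CPM in the progenitor gate and 3.17 to 51.0 CPM in the preadipocyte gate, and 4 of the 5 were higher in the preadipocyte gate. Among mural markers 3 of 4 were higher and 1 was lower there, with sums of 5.21 to 8.28 CPM in the progenitor gate and 18.1 to 26.1 CPM in the preadipocyte gate. Both markers of Schwann cells that could be tested were higher, with sums of 2.67 to 5.53 and 20.5 to 35.7 CPM. Of 3 epithelial markers tested, 1 was lower. Without cells carrying leukocyte or endothelial markers, Hoxd8 and Hoxd9 remained lower past the threshold. The part of mural and Schwann cells in the HoxD difference was not tested.

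The other genes that fell were in HoxC and HoxA. Hoxc11 (ENSMUSG00000001656, chr15:102954427-102957708), the last gene of HoxC with more than a trace of RNA, was at 2.79, 1.82 and 2.90 CPM in the progenitor gate and 1.09, 0.492 and 0.884 CPM in the preadipocyte gate. The groups did not overlap, and the log2 fold change was -1.66 (SE 0.28, adjusted p = 0.000284). Hoxc5 was at 6.25, 5.94 and 5.28 CPM against 4.07, 3.34 and 4.49 CPM, again without overlap (log2 fold change -0.62, SE 0.14, adjusted p = 0.00234). Its annotated exons share 166 bases with Hoxc10 on the same strand, but not the end from which molecules are captured. Hoxa7 was at 11.6, 16.7 and 8.49 CPM against 9.73, 13.8 and 7.22 CPM, with overlapping ranges but a lower preadipocyte value in each mouse. Its call (log2 fold change -0.30, adjusted p = 0.0457) was lost without mouse 1, 2 or 3 (adjusted p = 0.0903, 0.0749 and 0.107) and in 10 of 17 alternatives in all.

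Hoxc10 (ENSMUSG00000022484, chr15:102966796-102971893) was the most abundant of the genes that rose, with the smallest fold change of the 5. It was at 38.3, 44.5 and 31.4 CPM in the progenitor gate and 57.4, 63.4 and 51.5 CPM in the preadipocyte gate, with every preadipocyte value above every progenitor value. The log2 fold change was 0.55 (SE 0.06, adjusted p = 1.08e-05), 1.46-fold higher. Hoxa9 (ENSMUSG00000038227, chr6:52223100-52231089) was at 5.06, 3.96 and 2.88 CPM against 9.45, 8.70 and 7.00 CPM. Its groups did not overlap, and it was 2.05-fold higher (log2 fold change 1.03, SE 0.15, adjusted p = 9.85e-05).

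A trio of weak genes rose with them. Hoxa4 was at 0.483, 0.495 and 0.243 CPM in the progenitor gate and 1.30, 1.15 and 1.47 CPM in the preadipocyte gate (log2 fold change 1.65, SE 0.38, adjusted p = 0.00263), with no overlap. Hoxa6 was at 0.521, 0.261 and 0.405 CPM against 1.20, 0.547 and 1.18 CPM, where the lowest preadipocyte value, in mouse 2, still exceeded the highest progenitor value. Its log2 fold change was 1.22 (adjusted p = 0.0113), and the call was lost without mouse 3 (adjusted p = 0.0572). Hoxa6 had passed the filter only because of its preadipocyte sums. Hoxb8 was at 0.409, 0.808 and 0.292 CPM against 0.869, 1.20 and 1.11 CPM, also without overlap (log2 fold change 1.07, adjusted p = 0.0201). It too had passed the filter only because of its preadipocyte sums. It lost the call without mouse 1 (adjusted p = 0.0569), without mouse 3 (0.152) and with DESeq2 (0.0700).

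The other genes of the 4 highest did not pass the test. Hoxc8 had a log2 fold change of 0.16 with a 95% interval of -0.02 to 0.35, Hoxc9 of -0.04 (-0.18 to 0.11) and Hoxc6 of 0.01 (-0.15 to 0.16). A rise of Hoxc8 did pass under library-size and upper-quartile scaling and without mouse 1 (adjusted p = 0.0345, 0.0195 and 0.0363). Hoxb4 (log2 fold change 0.37, adjusted p = 0.0526) passed in 8 of 17 alternatives. Of the 16 genes not called, Hoxd4 had the lowest log2 fold change. Paralogs were called in different directions. In group 9, Hoxa9 was called higher, Hoxd9 lower and Hoxc9 in neither direction. Hoxb9 had 69 UMIs in the progenitor gate, 1 in the preadipocyte gate and 0 in the regulatory gate, too few for the filter. Tested without that filter it was called lower in the preadipocyte gate (adjusted p = 7.45e-05). In group 8, Hoxb8, which needed its preadipocyte sums to pass the filter, was called higher and Hoxd8 lower. The groups of 11 of the 26 genes tested, Hoxa6 and Hoxb8 among the 11, did not overlap between the gates, beside 43.6% of all genes tested.

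**Figure D3:**
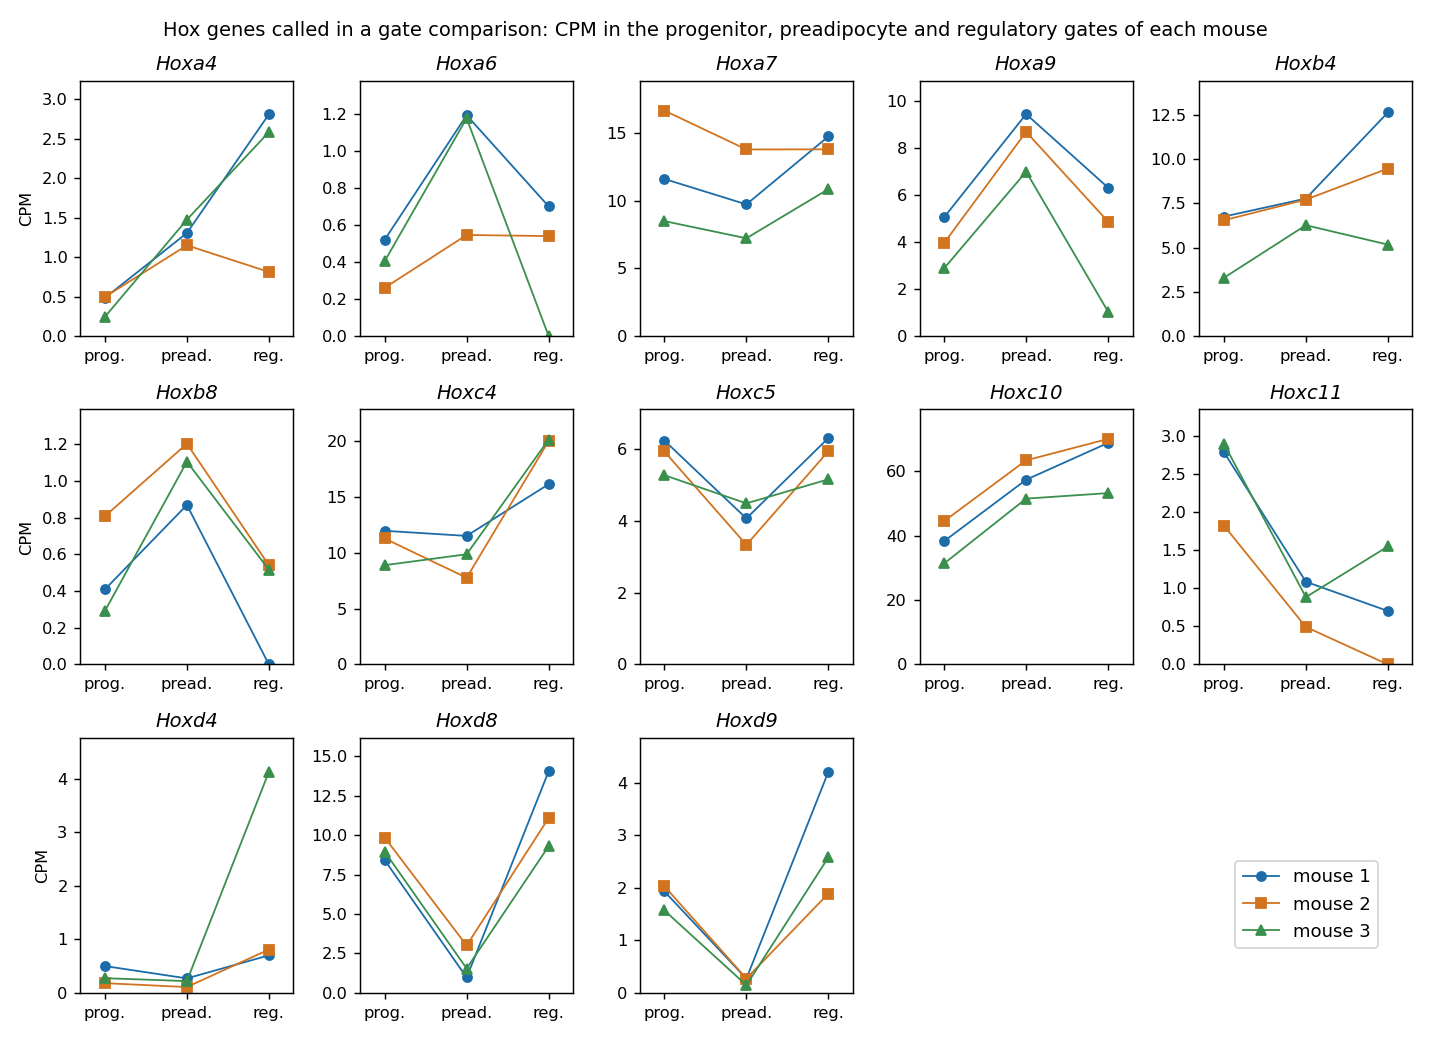
Level (CPM, linear axes from 0) of each Hox gene called in a gate comparison, with 1 line per mouse joining the progenitor, preadipocyte and regulatory gates. Hoxd8 dips from 8.42 to 9.85 CPM in the progenitor gate to 0.978 to 3.01 CPM in the preadipocyte gate and stands at 9.30 to 14.0 CPM in the regulatory gate, while Hoxc10 is lowest in the progenitor gate of each mouse.

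The promoters of Hoxd8 and Hoxb8 are shown because these paralogs had log2 fold changes of opposite sign between the preadipocyte and progenitor gates. Hoxb8 was tested only because of its preadipocyte sums, and its call was lost in 4 of 16 alternatives. The windows are the 250 bases before the start site in RefSeq on GRCm38.p6, at chr2:74704365-74704614 for Hoxd8 and chr11:96281655-96281904 for Hoxb8, both on the plus strand. Capitals mark matches to any of 3 motifs, searched on both strands: the Hox-Pbx site TGATNNAT, the posterior Hox and Cdx site TTTATNG, and the TATA box TATAAA.

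Hoxd8: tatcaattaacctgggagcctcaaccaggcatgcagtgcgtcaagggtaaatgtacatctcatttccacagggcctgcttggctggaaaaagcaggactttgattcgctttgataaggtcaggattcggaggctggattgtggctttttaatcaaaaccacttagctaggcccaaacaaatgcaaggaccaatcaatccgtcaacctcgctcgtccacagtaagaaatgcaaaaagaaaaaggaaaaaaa
Hoxb8: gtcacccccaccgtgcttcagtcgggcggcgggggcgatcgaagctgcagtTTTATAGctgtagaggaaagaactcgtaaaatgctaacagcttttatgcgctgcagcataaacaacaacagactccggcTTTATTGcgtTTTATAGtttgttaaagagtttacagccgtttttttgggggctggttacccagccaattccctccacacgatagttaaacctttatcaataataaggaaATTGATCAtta

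The Hoxd8 window held none of these letters. The Hoxb8 window held 6 matches: TTTATNG 3 times, TATAAA on the opposite strand 2 times, each time overlapping a TTTATNG match, and TGATNNAT on the opposite strand 1 time, from 11 to 4 bases before the start. Among 32851 windows of that length, 7.68% held TGATNNAT, 9.81% TTTATNG and 12.4% TATAAA. The table had 24 windows for 22 of the 39 Hox genes, and 4, 2 and 4 of these windows held the 3 motifs. Hoxd8 and Hoxb8 windows each had 44.4% G and C, against a median of 52.4% over all windows. The windows of Hoxa9 and Hoxa6, also called higher in the preadipocyte gate, held 0 matches to the 3 motifs. That of Hoxd9, called lower, held 0 as well, and that of Hoxd4, not called there, held 2. These matches describe letters and not binding.

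The second comparison set regulatory cells, described as stromal cells that restrain adipocyte formation, against progenitors. Hoxc4 and Hoxc10 were higher in the regulatory gate and Hoxc11 was lower. Of the 26 Hox genes tested, 5 were higher, or 4 without Hoxd4, and 1 lower, beside 18.9% of all genes higher and 24% lower, and their median log2 fold change was 0.23 against -0.05 over all genes. The groups of 6 Hox genes, Hoxd4 among them, did not overlap, beside 38.4% of all genes. The regulatory sums rest on 7057340 UMIs, against 153870473 in the progenitor gate, so a gene with no UMI there could still reach 0.425 CPM.

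Hoxc10 was at 68.8, 70.0 and 53.2 CPM in the regulatory gate, above its 31.4 to 44.5 CPM in the progenitor gate in every mouse and without overlap (log2 fold change 0.74, SE 0.08, adjusted p = 1.53e-05). Hoxc4 (ENSMUSG00000075394, chr15:103018934-103036852) was at 16.1, 20.01 and 20.1 CPM in the regulatory gate and 12.0, 11.3 and 8.89 CPM in the progenitor gate. The groups did not overlap, and the log2 fold change was 0.86 (SE 0.18, adjusted p = 0.00233). Hoxa4 was at 2.81, 0.811 and 2.58 CPM against 0.243 to 0.495 CPM, on 12 regulatory UMIs. Its call (log2 fold change 2.16, adjusted p = 0.0157) was lost without mouse 1 (adjusted p = 0.0678) and without mouse 3 (0.138). Hoxd4 was at 0.702, 0.811 and 4.13 CPM against 0.502, 0.182 and 0.275 CPM, also on 12 regulatory UMIs, of which mouse 3 gave 8. It had passed the filter through this gate alone, and its call (log2 fold change 2.62, adjusted p = 0.00743) rested on mouse 3, without which the log2 fold change was 1.45 (adjusted p = 0.266).

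Hoxb4, the remaining gene of that group, was at 12.6, 9.47 and 5.17 CPM in the regulatory and 6.75, 6.54 and 3.29 CPM in the progenitor gate. The ranges overlapped, but the regulatory value was the higher in each mouse (log2 fold change 0.69, adjusted p = 0.0319), and the call was lost without mouse 1 (adjusted p = 0.0855) and without mouse 2 (0.109). Of the genes of group 4, Hoxc4 alone kept its call under all 17 alternatives. Hoxc11 was at 0.702, 0 and 1.55 CPM, below its 1.82 to 2.90 CPM in the progenitor gate, on 4 UMIs. Its call (log2 fold change -2.00, adjusted p = 0.0183) was lost without mouse 1 (adjusted p = 0.0570) and without mouse 2 (0.145). Hoxd8 and Hoxd9, at 9.30 to 14.0 and 1.89 to 4.21 CPM in the regulatory gate, had log2 fold changes of 0.24 (95% interval -0.36 to 0.83) and 0.50 (-0.32 to 1.31) and did not pass. Hoxc8 missed the threshold as well (log2 fold change 0.29, adjusted p = 0.0565) and passed without mouse 2 (adjusted p = 0.0371), with DESeq2 (0.0420), under both other scalings, at a mitochondrial limit of 10%, and with cells that passed 2 gates kept in the regulatory gate. Hoxc6 (0.26, adjusted p = 0.0661) passed without mouse 1 (0.0323) and under upper-quartile scaling (0.0126). The log2 fold changes of the 20 genes not called ranged from -0.38 for Hoxa10 to 0.65 for Hoxa2. Sums of leukocyte markers were 0 to 19.0 CPM in the regulatory and 0.316 to 0.860 CPM in the progenitor gate. Those of epithelial markers were 0 to 111 and 0.0930 to 8.28 CPM, with 3 of 3 tested markers higher. The epithelial UMIs of the regulatory gate all came from a single mouse (37.0 ± 64.1 CPM, SD, n = 3 mice). Schwann cell markers summed to 16.0 to 28.7 against 2.67 to 5.53 CPM (1 of 2 higher), mural markers to 10.3 to 18.6 against 5.21 to 8.28 CPM (2 of 4 higher), and endothelial markers to 3.79 to 5.68 against 2.50 to 8.39 CPM (1 of 5 higher). The part of these cell types in the differences was not tested.

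The third comparison set regulatory cells against preadipocytes. Hoxd8, Hoxd9 and Hoxc4 were higher in the regulatory gate and Hoxa9 was lower. Of 26 genes, 4 were higher, or 3 without Hoxd4, and 1 lower, beside 12.3% and 13.4% of all genes. The median log2 fold change was 0.16 against -0.04 over all genes. The groups of 7 Hox genes, Hoxd4 and Hoxb8 among them, did not overlap, beside 27.4% of all genes. This comparison shares its sums with the other comparisons of gates, so its values are no separate evidence for the same genes. Hoxd8, at 14.0, 11.1 and 9.30 CPM against 0.978, 3.01 and 1.55 CPM, was higher in each regulatory sum than in any preadipocyte sum (log2 fold change 2.60, SE 0.34, adjusted p = 0.000112). Hoxd9 was at 4.21, 1.89 and 2.58 CPM against 0.147 to 0.273 CPM, on 18 and 12 UMIs, with the same separation (log2 fold change 3.50, SE 0.52, adjusted p = 0.000342). Hoxc4 was at 11.5, 7.77 and 9.87 CPM in the preadipocyte gate, below all 3 regulatory values (log2 fold change 1.05, SE 0.19, adjusted p = 0.00153), and the call was lost with cells thinned to 3000 UMIs (adjusted p = 0.0606).

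Hoxd4, which the filter kept through the regulatory sums alone, had a log2 fold change of 3.31 (adjusted p = 0.00731) on 12 and 10 UMIs, and the call was lost without mouse 3 (log2 fold change 2.33, adjusted p = 0.169). Hoxa9 was at 6.32, 4.87 and 1.03 CPM in the regulatory gate, below its preadipocyte values of 7.00 to 9.45 CPM, with mouse 3 lowest in both gates. Its log2 fold change was -0.99 (adjusted p = 0.0223), and the call was lost without mouse 2 (adjusted p = 0.109) and without mouse 3 (0.0974). Epithelial markers summed to 0 to 111 CPM in the regulatory gate and to 0.0547 to 2.65 CPM in the preadipocyte gate. The 3 tested were all called higher in the regulatory gate, where a single mouse held all of their UMIs (37.0 ± 64.1 CPM, SD, n = 3 mice). Of 5 endothelial markers 2 were lower, with sums of 3.79 to 5.68 against 3.17 to 51.0 CPM, and of 4 mural markers 1 was higher and 2 were lower, with sums of 10.3 to 18.6 against 18.1 to 26.1 CPM. The part of these markers was not tested. The log2 fold changes of the 21 genes not called ranged from -1.43 for Hoxb8 to 0.63 for Hoxc5.

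**Figure D4:**
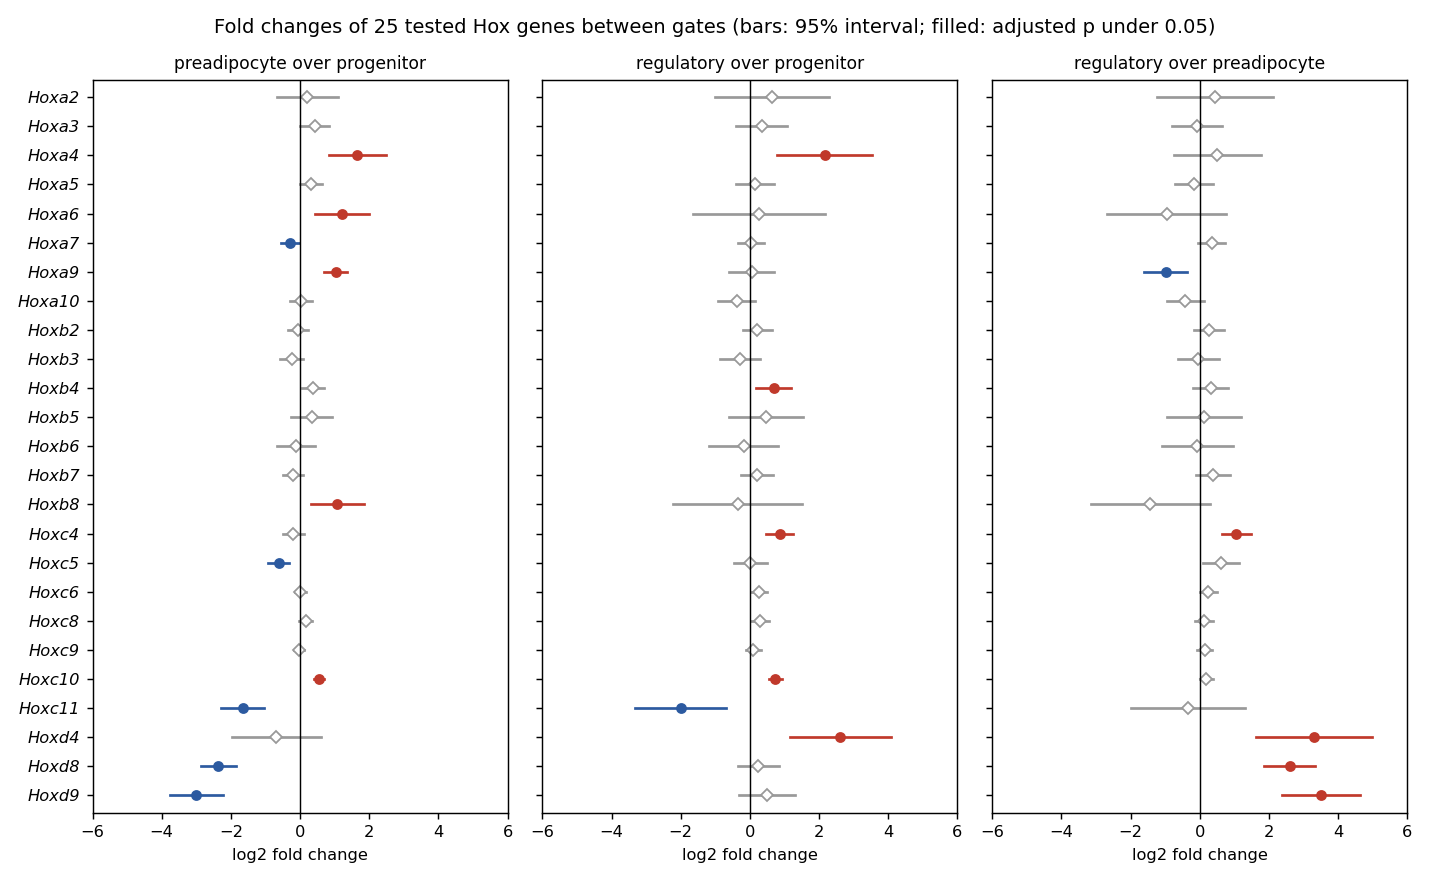
Log2 fold change of the 26 tested Hox genes, all but 1 of them shown, in each comparison of gates, with bars for the 95% interval and filled markers for an adjusted p under 0.05. Hoxd8 and Hoxd9 lie at -2.37 and -3.00 in the preadipocyte over progenitor panel and at 2.60 and 3.50 in the regulatory over preadipocyte panel, whereas Hoxc6, Hoxc8 and Hoxc9 lie between -0.04 and 0.29 in all panels.

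The last comparison split the preadipocyte gate by UMIs of Cd44, a hyaluronan receptor. The study separated Icam1+ cells by clustering on RNA, with Cd44 among the markers. It then sorted ICAM1+ cells by CD44 protein on the surface. This split used Cd44 UMIs alone, in a gate set by Icam1 and Fabp4 together, so it need not part the same cells. Cells with at least 2 Cd44 UMIs numbered 294, 312 and 324, and cells with 0 UMIs 1557, 756 and 1157. Hox genes were lower in the cells with Cd44, in every cluster but HoxD. Of the 17 Hox genes that passed the filter, 0 were higher and 11 were lower, or 10 without Hoxb6, beside 12.2% of all 11280 genes higher and 5.86% lower, and 14 had an unadjusted p under 0.05. The median log2 fold change was -0.81 over the Hox genes and 0.01 over all genes, and 16 of 17 were negative. Scaling changed the balance over all genes, from 1376 higher and 661 lower to 918 and 1262 by library size and 1017 and 1130 by upper quartile, while 0 Hox genes were higher and 12 lower under both. The groups of 13 of the 17, Hoxb6 among the 13, did not overlap, beside 18.4% of all genes.

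The Hox total was 145 to 193 CPM in cells with Cd44 and 248 to 317 CPM in cells without, lower by 0.47, 0.79 and 0.77 on the log2 scale in mice 1, 2 and 3. For HoxA the log2 ratios were -1.03, -1.15 and -1.17, for HoxB -0.61, -1.31 and -1.35, and for HoxC -0.35, -0.62 and -0.63. Mouse 1 had the smallest decrease in each of these clusters. HoxD, already low in this gate, had ratios of -0.16, -0.09 and 0.20 on 88 UMIs, with no common sign.

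Hoxa9 showed the clearest difference, with 3.71, 3.69 and 2.83 CPM in cells with Cd44 and 10.4, 11.8 and 9.32 CPM in cells without. The groups were far apart, and the log2 fold change was -1.52 (SE 0.22, adjusted p = 0.000542). Hoxb4 was at 3.34, 3.04 and 3.64 CPM against 8.84, 9.99 and 7.33 CPM, again without overlap (log2 fold change -1.33, SE 0.24, adjusted p = 0.00281). Hoxa10 was at 5.19, 6.08 and 3.64 CPM against 9.75, 14.5 and 9.32 CPM (log2 fold change -1.07, SE 0.20, adjusted p = 0.00309). Hoxc6 was at 16.0, 16.9 and 10.5 CPM against 26.2, 27.8 and 24.6 CPM (log2 fold change -0.73, SE 0.13, adjusted p = 0.00300). These 4 genes kept their calls without any 1 of the mice.

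The other 7 calls did not. Hoxa7 (log2 fold change -0.92) was at 5.19 to 7.81 CPM against 8.08 to 17.7 CPM, and its call was lost without mouse 2 (adjusted p = 0.103). Hoxb6 (-1.71), with 9 UMIs in cells with Cd44, had passed the filter, here 1.58 CPM, through the sums of cells without Cd44 alone, and lost it without mouse 2 (0.285). Hoxa5 (-0.90) lost it without mouse 2 or 3 (0.282 and 0.0773), as did Hoxb2 (-0.88; 0.101 and 0.0749). The same held for the strongest HoxC genes, whose differences were smaller. Hoxc8 was at 46.0, 40.8 and 33.9 CPM against 55.9, 55.1 and 51.7 CPM (log2 fold change -0.33, adjusted p = 0.0257, and 0.0654 and 0.125 without mouse 2 or 3). Hoxc9 had -0.45 (0.0154, then 0.128 and 0.0545) and Hoxc10 -0.39 (0.0154, then 0.127 and 0.0525). Without mouse 2, 4 Hox genes were called, and without mouse 3, 6. Over all genes the calls fell as well, from 1376 higher and 661 lower to 759 and 300 without mouse 2 and 807 and 410 without mouse 3. Hoxd8 was the one gene above 0, at 1.48, 2.82 and 2.42 CPM against 0.827, 2.47 and 1.49 CPM, and did not pass (log2 fold change 0.56, 95% interval -0.29 to 1.41).

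This result leaned on the pairing of sums from 1 mouse. Fitted without the mouse as a block, 0 Hox genes were called by edgeR, with adjusted p-values from 0.0751 for Hoxa9 to 0.525 for Hoxc10, and 0 genes of all genes were higher and 1 lower. DESeq2 with the block called 3 of the 17, all lower. It gave no adjusted p for several of the 17, among them Hoxa5 and Hoxb6. The split also moved other measures. Preadipocyte markers summed to 2762 to 3494 CPM in cells with Cd44 and 3916 to 4369 CPM in cells without, endothelial markers to 0 to 1.95 and 4.97 to 79.8 CPM, and the median cell had 7578.5 to 13729 and 7118 to 12606.5 UMIs. The 11 calls stood when cells with leukocyte or endothelial markers were left out. The part of the other measures was not tested.

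**Figure D5:**
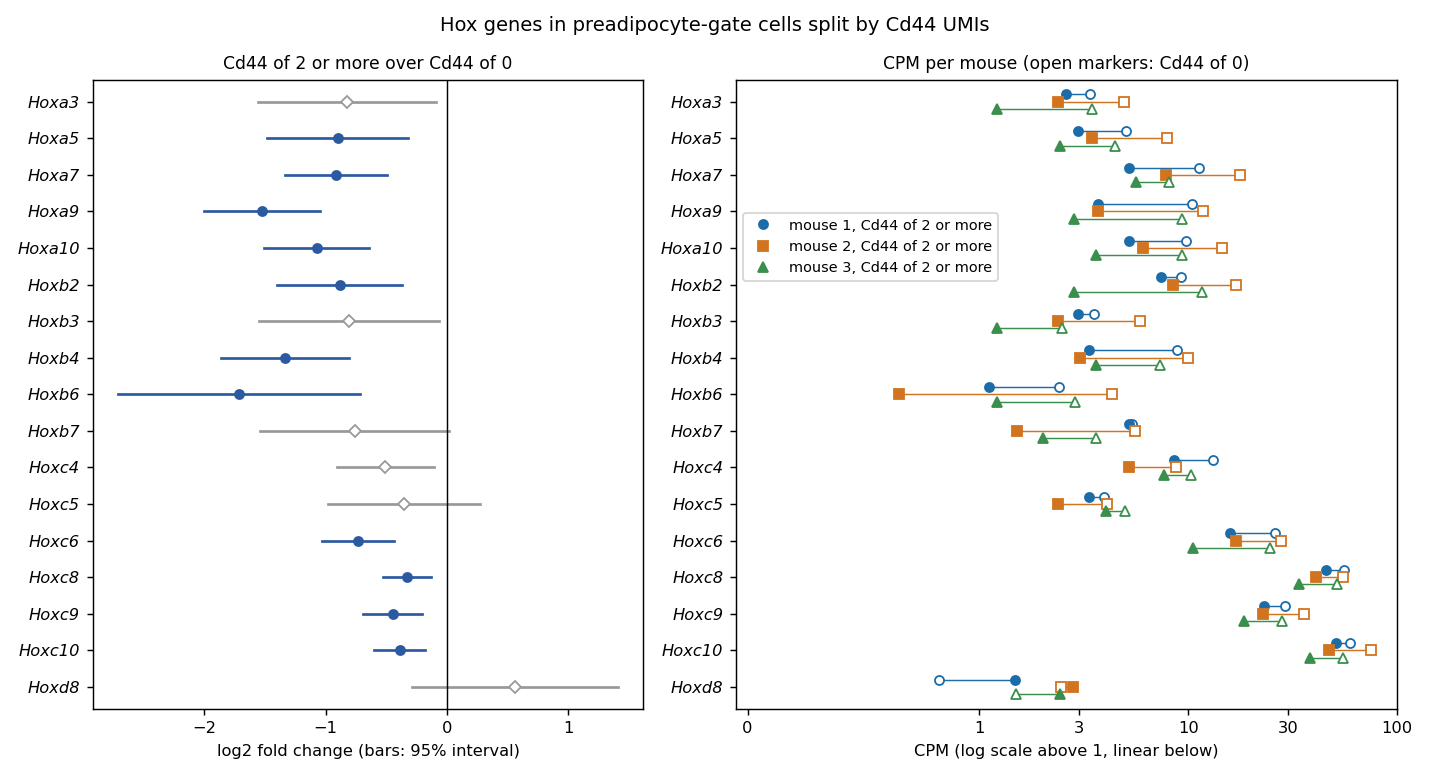
Left, log2 fold change of the 17 tested Hox genes between preadipocyte-gate cells with at least 2 and with 0 Cd44 UMIs, with 95% intervals and filled markers for an adjusted p under 0.05. Right, the levels in each mouse (CPM, log scale above 1 and linear below), with open markers for cells without Cd44, where every Hox gene but Hoxd8 has its open marker to the right of the filled one in each mouse.

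The partners and regulators of Hox genes were counted in the same fits. Among 11 TALE cofactors, 3 were higher and 5 lower in the preadipocyte than in the progenitor gate, 1 higher and 8 lower in the regulatory than in the progenitor gate, and 0 higher and 3 lower in the regulatory than in the preadipocyte gate. Over all genes tested, 27.2% were higher and 29.2% lower, 18.9% and 24%, and 12.3% and 13.4% in the same order. Meis1 was at 19.3 ± 1.87 CPM in the progenitor gate, 18.2 ± 2.23 in the preadipocyte gate and 8.64 ± 1.01 in the regulatory gate, and Meis2 at 47.0 ± 2.36, 54.1 ± 4.64 and 29.6 ± 6.25 CPM. Both were lower in the regulatory than in the progenitor gate, by 1.10 and 0.70 on the log2 scale. So the regulatory gate, with the highest Hox sum, had the lowest mean levels of these 2 cofactors. Tgif1, a repressor of the family, had a log2 fold change of -1.34 and Pbx4, which passed the filter through the progenitor gate alone, of -4.57 in the preadipocyte over progenitor comparison. Between the cells parted by Cd44, 1 of 10 cofactors was higher (Tgif1, 0.84) and 1 lower (Meis1, -0.54), beside 12.2% and 5.86% of all genes.

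Among other transcription factors of position and limb, 23 of 30 were tested between gates. Of these, 6 were higher and 12 lower in the preadipocyte than in the progenitor gate, 9 and 10 in the regulatory than in the progenitor gate, and 9 and 4 in the regulatory than in the preadipocyte gate, where the shares of all genes were 27.2% and 29.2%, 18.9% and 24%, and 12.3% and 13.4%. By Cd44, 0 of 18 were higher and 3 lower, beside 12.2% and 5.86% of all genes, among them Msx1 (-0.65) and Nr2f2 (-0.39). Pitx1, which specifies the hindlimb, was at 9.82, 6.96 and 8.28 CPM in the progenitor gate and at 0.380, 0.273 and 1.03 CPM in the preadipocyte gate (log2 fold change -4.04). It reached the limit of the filter in 3 progenitor sums, 1 preadipocyte sum and 0 regulatory sums, so it was tested only because of its progenitor sums. Tbx5, a forelimb factor, fell by 2.64 on the log2 scale from the progenitor to the preadipocyte gate. Prrx1, a factor of limb and trunk mesenchyme, was lower by 0.86 in the preadipocyte than in the progenitor gate. Meox2, a mesoderm homeobox gene, was at 98.3, 107 and 117 CPM in the regulatory gate and 4.97 to 5.60 CPM in the progenitor gate (log2 fold change 4.35), and Nr2f2 was higher there by 2.84. Shox2 (0.51) was also higher and Twist1 (-0.50) lower in the regulatory than in the progenitor gate, and Msx1 was higher by 1.27 in the regulatory than in the preadipocyte gate.

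Among 21 Polycomb and trithorax genes, 2 were higher and 12 lower in the preadipocyte than in the progenitor gate, 0 and 9 in the regulatory than in the progenitor gate, and 0 and 4 in the regulatory than in the preadipocyte gate. The shares of all genes called were 27.2% higher and 29.2% lower, 18.9% and 24%, and 12.3% and 13.4%. Eed (0.53) and Ezh2 (0.42), core subunits of Polycomb repressive complex 2, were those higher in the preadipocyte gate. Suz12 (-0.20), also a core subunit of this complex, was lower there, as was Cbx7 (-1.04), which reads the mark the complex writes. The trithorax genes Kmt2a and Ash1l were lower in the regulatory than in the progenitor gate, by 0.54 and 0.47. Kdm6b, a demethylase that removes the Polycomb mark, was at 395 ± 56.5, 288 ± 48.1 and 243 ± 60.1 CPM in the progenitor, preadipocyte and regulatory gates. It was higher by 1.09 in preadipocyte-gate cells with Cd44 (adjusted p = 1.15e-05), where 2 of 20 of these genes were higher and 1 lower, beside 12.2% and 5.86% of all genes.

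Some non-coding genes of the clusters were called as well. Hoxd3os1, antisense to Hoxd3 and Hoxd4, was at 1.67, 2.84 and 1.85 CPM in the progenitor gate and 0.380, 1.15 and 0.663 CPM in the preadipocyte gate, without overlap (log2 fold change -1.63, adjusted p = 0.000348), and was higher by 2.24 in the regulatory than in the preadipocyte gate (adjusted p = 0.00177). Hotairm1, in the HoxA cluster, was higher in the preadipocyte and in the regulatory than in the progenitor gate, by 0.57 and 0.90, and Hoxaas2 was higher in the preadipocyte gate (1.40, adjusted p = 0.0391). Hoxaas2 reached the limit of the filter in 0 progenitor, 1 preadipocyte and 2 regulatory sums. Hoxd4 and Hoxa3, whose exons overlap Hoxd3os1 and Hoxaas2 on the opposite strand, were not called between the preadipocyte and progenitor gates (log2 fold changes -0.69 and 0.42). The sources used here do not say whether counting used the strand. Whether reads of genes on opposite strands were told apart is therefore not known from them. No further calls were made among the 5 non-coding genes tested, and 0 of the 2 that could be tested by Cd44 were called. Of 12 tested genes that flank the clusters, 3 were higher and 2 lower in the preadipocyte than in the progenitor gate, 2 and 1 in the regulatory than in the progenitor gate, 0 and 1 in the regulatory than in the preadipocyte gate, and 2 and 0 by Cd44. All genes tested gave 27.2% and 29.2%, 18.9% and 24%, 12.3% and 13.4%, and 12.2% and 5.86%. Skap2, beside HoxA, was higher in the preadipocyte than in the progenitor gate by 0.47, Cbx5, beside HoxC, was lower by 0.38, and Lnpk, beside HoxD, did not pass there (-0.15, adjusted p = 0.0563).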

How the data were processed

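Single-cell RNA-seq libraries of CD31- CD45- stromal cells were analysed from 3 wild-type mice. The values deposited by the authors are UMI counts per gene and cell barcode, not normalized, made with Cell Ranger (2.1.1 with mm10 in the submitters' processing notes, 4.0.0 in the file headers). Doublets were not removed. Cells were filtered and gated on raw UMIs as the report states. The 174 cells that passed the preadipocyte and regulatory gates and the 90 that passed the progenitor and regulatory gates were left out, the former a choice made after their number was seen. The 39 genes and all lists were chosen with earlier results of these data known.

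UMIs were summed per mouse and gate and tested with edgeR 4.0.16 in R 4.3.3 by its quasi-likelihood test, after filterByExpr and TMM normalization, with a term for the mouse (the replicate block) and Benjamini-Hochberg adjustment at a threshold of 0.05. The gates were fitted together as 9 sums and the Cd44 split as 6. The gate genes were left out of counts of called genes, and Cd44 too where it made the split. The procedure was also run on simulated sums in which most genes did not differ between gates. Many more genes differed between the real gates, so the simulation does not cover normalization in such data. The sums of a mouse come from 1 animal, and after the gate means were taken off they correlated with each other in every mouse (lowest Pearson's r of 0.153, 0.383 and 0.245 over 13264 genes). Limits for counts of 0 use 3 counts and cover counting error only. Gene positions are from GENCODE vM21 (GRCm38), in which 32235 gene identifiers were found, homeoboxes from its transcripts, and promoters from RefSeq. Named Hox genes are those at or above 20 CPM or called in a comparison, and from each related list the 3 most abundant genes and the 2 largest calls per comparison, a few of which are given as counts only. Values of some genes and some sequences are not reported here. Alternatives covered normalization (library size, upper quartile), DESeq2 1.42.0, the low-count filter, the replicate block, each mouse left out, a mitochondrial limit of 10%, gates on UMIs scaled to 10000 per cell, cells thinned to 3000 UMIs, the 5% of cells with the most UMIs left out, cells with at least 2 UMIs of leukocyte or endothelial markers left out, and cells with Mki67 or Top2a left out. Figures were drawn with matplotlib 3.10.9.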

Additional observations from a re-analysis of the deposited data

How the results depend on the processing

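No Hox gene that was called changed sign under any alternative run. For thinning, cells under 3000 UMIs were left out and the others were thinned to 3000 UMIs and gated again. The preadipocyte gate then held 41, 28 and 68 cells with at least 2 Cd44 UMIs in mice 1, 2 and 3, against 294, 312 and 324. After thinning, 17 Hox genes passed the low-count filter in each comparison of gates and 5 in the Cd44 split. Called were 5, 2 and 1 for the preadipocyte over progenitor, regulatory over progenitor and regulatory over preadipocyte gates, and 0 for Cd44. The HoxD sum of the regulatory gate then came to 18.9 CPM. Leaving out each mouse in turn gave 7 to 9, 4 to 5 and 3 to 5 calls in the same order of gates, and 4 to 12 for Cd44. Over all genes, 2903 to 3253 were then higher and 3214 to 3372 lower in the first comparison. In the second they were 1816 to 2295 and 2236 to 2497, and in the third 1106 to 1423 and 947 to 1377. For Cd44 they were 759 to 1434 and 300 to 797. The Cd44 split had 3 calls with DESeq2 and 0 with no replicate block. Without the block, that is, without the pairing of sums from 1 animal, Hoxa6 (adjusted p = 0.0541), Hoxa7 (0.490) and Hoxb8 (0.106) lost their calls between the preadipocyte and progenitor gates, Hoxb4 (0.172) and Hoxc11 (0.0654) between the regulatory and progenitor gates, and Hoxa9 (0.166) between the regulatory and preadipocyte gates. Over all genes, leaving out the block lowered the calls between the preadipocyte and progenitor gates from 3601 higher and 3870 lower to 1895 and 2101. In the same order of gates, they fell from 2512 and 3182 to 1491 and 1639, and from 1633 and 1772 to 879 and 652. For Cd44 they fell from 1376 and 661 to 0 and 1. For Cd44 they were 616 and 134 with DESeq2 and 148 and 82 after thinning. The upper quartile turned 2512 higher and 3182 lower in the regulatory over progenitor comparison into 3200 and 2353. The cause of these changes was not tested. After thinning, both the Hox genes tested and the cells in the Cd44 split were fewer, and their parts were not told apart. Over all alternatives, 58 counts of Hox calls stayed within 1.5 times the reported count and 9 fell below that range. Depth limits the regulatory gate most, where a gene with no UMI could still reach 0.425 CPM.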
